A study of Rattus norvegicus with 12 samples.

Results

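The mitosis and spindle genes are a set of 52 listed symbols of the G2 and M phases of the cell cycle, taken as rows of the array annotation that carry exactly 1 of these symbols. A row was found for 48 of the 52, out of 18166 genes tested in all. Cenpe, Kif14 and Spc24 had no row of their own, and Nek2 shared its row with another gene. Ccnb2 alone had 2 rows, and the brighter was used. The arrays measured total RNA of kidneys from Rattus norvegicus (rat) after ischemia-reperfusion injury, in which blood flow is stopped and then restored. The 4 groups held 3 animals each, and combined a treatment, placebo or anti-miR-182, with a time after injury, day 2 or day 7. All 4 groups had been injured, so no value stands for an uninjured kidney. The labels do not give strain, sex, age, or the dose, route and time of treatment, and replicates are numbered only to name them. The animal codes in the sample titles are distinct, so an array was taken as 1 animal.

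To divide, a cell copies its DNA, condenses its chromosomes, attaches them to a spindle of microtubules and pulls the copies apart. Cyclin B with its kinase Cdk1 starts this phase, Polo-like and Aurora kinases build and correct the spindle, and a checkpoint holds the cell until every kinetochore is attached. The anaphase-promoting complex then marks cyclin B and securin for destruction, and the daughter cells separate by cytokinesis. The transcripts of these proteins are made mainly from late S phase to mitosis and are scarce in resting cells. In the injured kidney, tubule cells that survive are known to re-enter the cell cycle, and macrophages, fibroblasts and endothelial cells can divide as well. MicroRNA-182 binds messenger RNAs through its seed, and an anti-miR is a modified oligonucleotide that pairs with the microRNA and blocks it.

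The mature rat microRNA that the inhibitor is named for is shown because treatment is 1 of the 2 contrasts below. It lies at chr4:59752249-59752273 on the minus strand of GRCr8 and is given as in RefSeq, with its seed, bases 2 to 8, in capitals.
rno-miR-182: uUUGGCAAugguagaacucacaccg

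Promoters of G2 and M phase genes are known for the cell cycle homology region, abbreviated CHR, which is bound by the DREAM and MuvB complexes, and for CCAAT boxes bound by NF-Y. RefSeq windows from 250 bases before to 50 after the transcription start (GRCr8) were matched for 41 of the 48 genes; Aurkb, Ccna2, Incenp, Pbk, Racgap1, Tpx2 and Ube2c had none. The letters TTTGAA, on either strand, occurred in 31 of 41 windows (75.6%), against 15.9% of the 14564 genes with a window. The other CHR form searched, TTCGAA, occurred in 2 (4.9% against 1.9%). CCAAT, on either strand, was present in 29 (70.7% against 37.9%), and 22 held it 2 or more times (53.7% against 12.3%). Near the start, from 60 bases before to 40 after it, 25 of 41 windows held 1 of the CHR forms (61% against 4.8%). TATAAA, the TATA box, was found in 1 of the 41, that of Nusap1 (2.4% against 11.9%). Other cell cycle lists were searched for these letters too, and the shares differed between lists. TTTGAA was present in 23 of 49 windows of further mitosis genes outside the set (46.9%), in 6 of 14 of regulators of cell cycle transcription (42.9%) and in 4 of 31 of DNA replication genes (12.9%). It was present in 1 of 12 windows of anaphase-promoting complex genes (8.3%). Among inhibitors of cyclin-dependent kinases, G1 cyclins and their kinases it was present in 1 of 7 (14.3%). Neither of these lists held a CHR form near the start. A CHR form near the start was found in 21 of the 49 further mitosis genes (42.9%), and CCAAT in 29 of those 49 (59.2%) and in 19 of the 31 replication genes (61.3%). Each gene was given 1 window, at 1 start. The annotated spans of some genes, such as Kif11, Nuf2 and Mki67, reach upstream of the start used, and other starts were not searched. A match is a run of letters and no measured binding.

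The 140 bases before the start used are shown for 6 genes that the results below return to. Capitals mark CCAAT (or ATTGG on the other strand) and TTTGAA (or TTCAAA on the other strand). The stretch of Mki67 lies within the annotated span of its gene, and those of Cdk1, Spc25 and Pttg1 reach into theirs. The windows are chr20:19265153-19265292 on the plus strand, chr3:74396719-74396858 on the minus strand, chr10:28406327-28406466 on the minus strand, chr10:84473094-84473233 on the minus strand, chr1:199952594-199952733 on the minus strand and chr2:33655226-33655365 on the minus strand, all of GRCr8 and written 5′ to 3′ toward the gene.
Cdk1: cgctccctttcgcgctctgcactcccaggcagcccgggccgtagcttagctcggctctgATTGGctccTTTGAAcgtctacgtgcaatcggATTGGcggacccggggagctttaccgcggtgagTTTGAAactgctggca
Spc25: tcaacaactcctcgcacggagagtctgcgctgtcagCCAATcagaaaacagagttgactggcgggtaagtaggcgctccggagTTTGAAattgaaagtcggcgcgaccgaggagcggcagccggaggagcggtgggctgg
Pttg1: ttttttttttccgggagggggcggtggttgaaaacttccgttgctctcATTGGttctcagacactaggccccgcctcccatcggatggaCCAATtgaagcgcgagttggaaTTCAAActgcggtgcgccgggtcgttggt
Top2a: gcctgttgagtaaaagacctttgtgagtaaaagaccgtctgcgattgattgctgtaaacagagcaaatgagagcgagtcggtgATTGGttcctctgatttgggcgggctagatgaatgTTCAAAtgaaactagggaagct
Mki67: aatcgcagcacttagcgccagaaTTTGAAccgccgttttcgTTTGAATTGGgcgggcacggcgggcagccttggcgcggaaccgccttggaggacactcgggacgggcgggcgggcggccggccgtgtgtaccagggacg
Ccnb1: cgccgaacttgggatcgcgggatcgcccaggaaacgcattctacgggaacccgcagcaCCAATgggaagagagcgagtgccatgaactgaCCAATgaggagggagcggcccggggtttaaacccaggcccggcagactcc
In Mki67 a CHR match and a CCAAT box on the other strand share letters. The Ccnb1 window has 2 CCAAT boxes and neither CHR form searched. Cdca8, not shown, also had a CHR match that overlaps a CCAAT box.

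**Figure D1:**
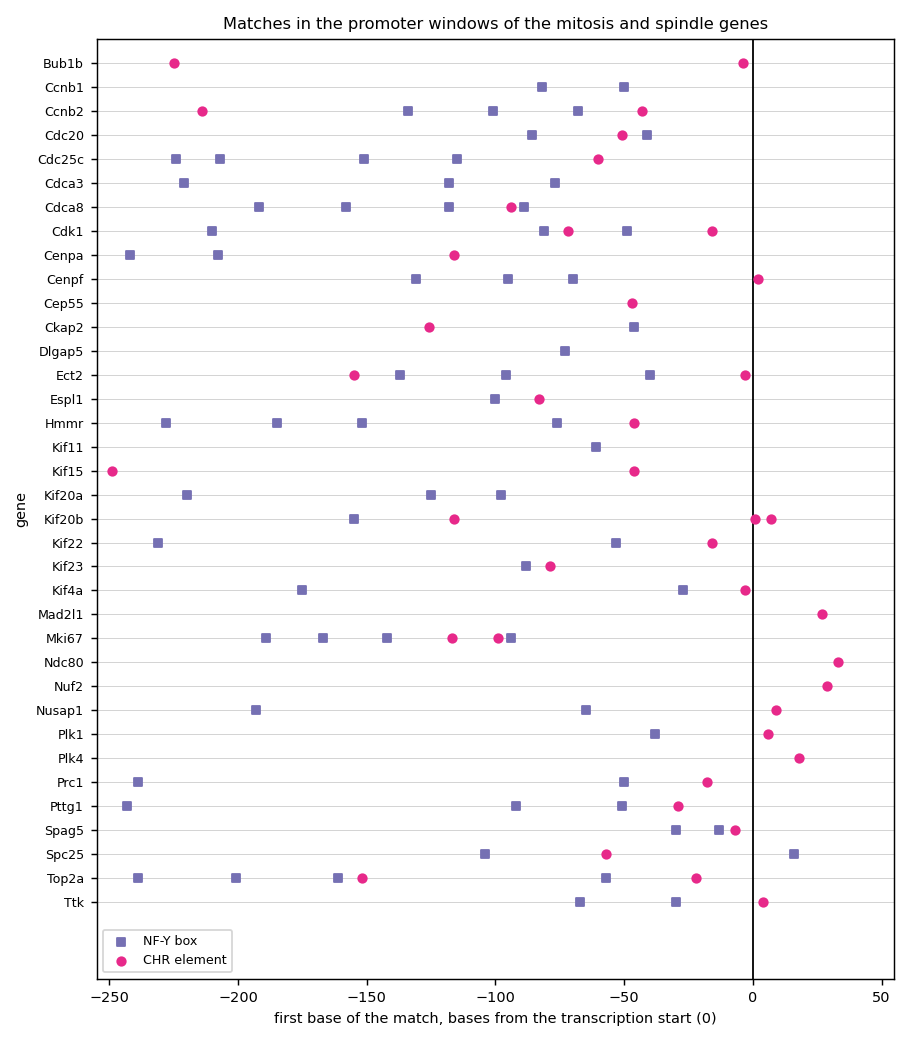
Positions of CHR matches (circles; TTTGAA or TTCGAA, either strand) and CCAAT boxes, labelled NF-Y box (squares; either strand), in the windows of the 36 mitosis and spindle genes that held either, as bases from the transcription start at 0. The 40 CHR matches in 31 genes had a median first base of -44.5, and the 68 boxes in 29 genes one of -100.5.

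The signals are deposited log2 values, so a difference of 1 is a 2-fold change. Array medians over all rows ran from 5.98 to 6.10 at day 2 and from 5.84 to 5.93 at day 7. The labels do not state whether both days were normalized together, and 190 rows had values at day 7 only, so day and normalization cannot be told apart in comparisons of days. The 15 proximal tubule genes read as a check of the tissue averaged 2.67 to 3.99 log2 above the mean of all genes in the 12 arrays. Of the 48 mitosis and spindle genes, 43 had a mean signal above that of the median gene, and the mean of Cdc25c, in the lowest quartile, was the dimmest at percentile 23.3. In whole kidney RNA, fewer dividing cells and less RNA per dividing cell cannot be told apart.

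The mitosis and spindle genes were higher at day 2 than at day 7 in both treatments. In placebo animals all 48 fell, by a median of 1.50 on the log2 scale, from -2.32 for Ccnb1 to -0.35 for Espl1, at adjusted p values up to 0.032 (limma, Benjamini-Hochberg over all genes). Under anti-miR-182, 46 of 48 fell, and the median difference over the 48 was -1.44, from -2.22 to -0.15. In the same comparisons 23.7% and 24.9% of all genes tested were called lower, and the median gene differed by -0.18 and -0.21. A fall of more than 1 log2 was called for 39 of the 48 in placebo and 36 under anti-miR-182, against 1.75% and 1.50% of all genes. The day 7 arrays lay below all day 2 arrays for 47 of 48 genes in placebo and 46 under anti-miR-182, where 40.0% and 35.0% of all genes did so. With quantile normalization, which moves the median gene to 0.00 in both comparisons, the medians of the set were -1.27 and -1.23, and 44 and 42 genes were called. Array-median centring gave -1.35 and -1.25, and again called 44 and 42.

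**Figure D2:**
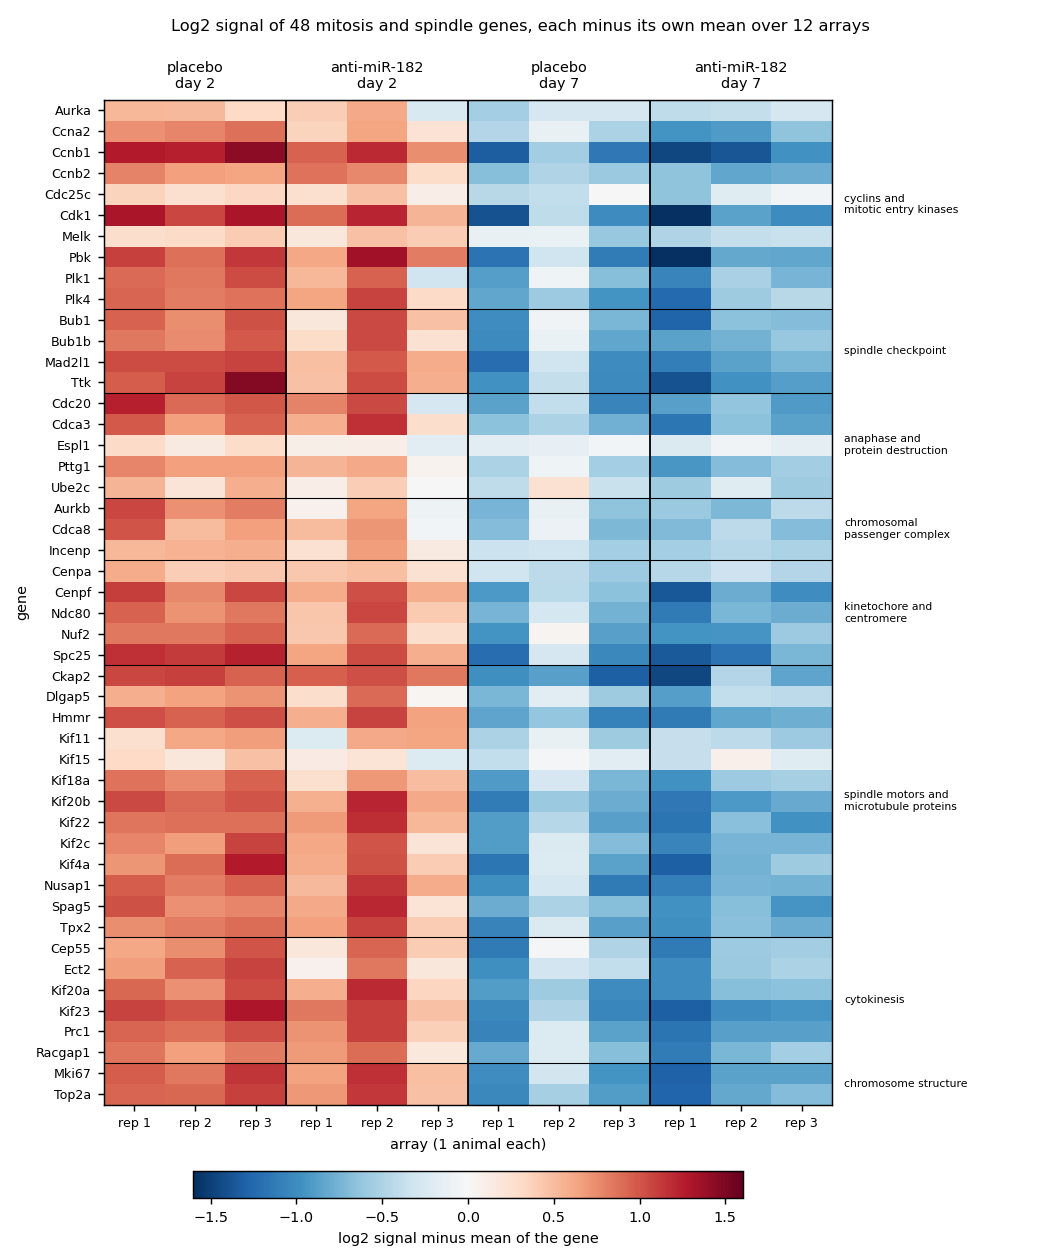
Log2 signal of the 48 genes (rows, grouped by role) in the 12 arrays (columns, grouped by treatment and day), each gene minus its own mean over the arrays; red is above and blue below that mean. Day 2 columns are red and day 7 columns blue for nearly every gene, and placebo day 7 replicate 2 is the palest of the day 7 columns.

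All 10 cyclins, kinases and other genes of mitotic entry fell in both treatments, with medians of -1.38 and -1.32, and among them were the 2 largest falls of the set. Ccnb1, which encodes cyclin B1, read 9.05, 9.03 and 9.21 in placebo at day 2 and 6.46, 7.22 and 6.64 at day 7. Under anti-miR-182 its values were 8.72, 8.97 and 8.52 at day 2 and 6.32, 6.41 and 6.81 at day 7. No array of one day reached the range of the other, and the differences of -2.32 ± 0.19 (SE) and -2.22 ± 0.19 correspond to a 4.99-fold and a 4.67-fold fall (adjusted p 3.59e-05 and 4.65e-05, limma). Cdk1, the kinase that cyclin B activates, read 9.11, 8.88 and 9.11 in placebo and 8.70, 9.03 and 8.35 under anti-miR-182 at day 2. At day 7 it read 6.41, 7.40 and 6.80, and 6.14, 6.95 and 6.80. It fell by 2.16 and 2.06 on the log2 scale, and the day 7 arrays of each treatment differed by up to 1 log2 among themselves. Pbk, a mitotic kinase, fell by 1.92 in placebo and 2.02 under anti-miR-182. Plk4, which starts centriole duplication, fell by 1.67 and 1.42, and Plk1, which acts at entry, spindle and exit, by 1.48 and 1.16. Ccnb2 fell by 1.28 and 1.40, and the mean of its second row was also lower at day 7, 8.35 against 7.04 in placebo and 8.18 against 6.77 under anti-miR-182. Ccna2, the cyclin A of S phase and early mitosis, fell by 1.16 and 1.24. Aurka, a centrosome kinase, fell by 0.81 and 0.60. The differences of Melk, a mitotic kinase (-0.61 and -0.76), and of Cdc25c, the phosphatase that activates Cdk1 (-0.59 and -0.57), were the smallest of the 10 genes of this role in placebo. The fall of Melk in placebo was lost with quantile normalization, that of Aurka under anti-miR-182 with quantile normalization or centring, and that of Cdc25c with centring in either treatment.

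The 4 checkpoint genes, whose products delay anaphase, fell in both treatments, with medians of -1.71 in placebo and -1.52 under anti-miR-182. Ttk, the kinase that starts the checkpoint signal, read 8.21, 8.32 and 8.70 in placebo at day 2 and 6.27, 6.86 and 6.22 at day 7, and it fell by 1.96. In the treated animals Ttk read 7.70, 8.28 and 7.82 and then 5.84, 6.27 and 6.35, a fall of 1.78. The days did not overlap in either treatment. Mad2l1, part of the inhibitor of Cdc20, fell by 1.91 and 1.58. Bub1 and Bub1b, also of the checkpoint, fell by 1.50 and 1.52 in placebo and by 1.45 and 1.27 under anti-miR-182.

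Of the 5 genes of anaphase and protein destruction, 5 fell in placebo and 4 under anti-miR-182, with medians of -1.07 and -1.14. Cdc20, the activator of the anaphase-promoting complex, fell by 1.82 and 1.33. Cdca3, a ligase adaptor that promotes mitotic entry, fell by 1.50 and 1.56. Pttg1, which encodes securin, read 7.43, 7.31 and 7.31 in placebo at day 2 and 6.15, 6.58 and 6.11 at day 7, and fell by 1.07. Under anti-miR-182 it read 7.20, 7.26 and 6.71 and then 5.72, 5.96 and 6.09, a fall of 1.14. Ube2c, the ubiquitin-conjugating enzyme of the complex, read 7.68, 7.34 and 7.71 in placebo at day 2 and 6.73, 7.38 and 6.78 at day 7. It was the only one of the 48 whose days overlapped in placebo, through replicate 2 of each day, and its falls of 0.61 and 0.62 were lost in both treatments with quantile normalization or centring. Espl1, the separase that securin holds back, read 6.42, 6.26 and 6.41 and then 5.95, 5.99 and 6.08 in placebo. In treated animals Espl1 read 6.21, 6.22 and 5.94 and then 5.89, 6.06 and 5.98. The placebo difference of -0.35 ± 0.11 passed (adjusted p 0.032) and that under anti-miR-182 of -0.15 ± 0.11 did not (adjusted p 0.33). With quantile normalization the placebo difference of Espl1 was -0.22 and with centring -0.20, and neither passed.

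In the chromosomal passenger complex, which corrects wrong attachments and guides cytokinesis, all 3 measured genes fell in both treatments. Aurkb, its kinase, read 7.90, 7.57 and 7.65 in placebo at day 2 and 6.09, 6.72 and 6.19 at day 7, a fall of 1.37 ± 0.19 (SE). Under anti-miR-182 it read 6.90, 7.46 and 6.75 and then 6.24, 6.12 and 6.41, a fall of 0.78 ± 0.19. The treated arrays were the lower ones at day 2, and the treatments overlapped at day 7. Cdca8, which encodes borealin, fell by 1.22 and 1.0, and Incenp, the scaffold, by 0.96 and 0.86.

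All 5 kinetochore and centromere genes fell, with medians of -1.47 and -1.54. Spc25, a subunit of the NDC80 complex that binds microtubules, read 9.06, 9.01 and 9.12 in placebo at day 2 and 6.68, 7.63 and 6.86 at day 7. With anti-miR-182 it read 8.53, 8.94 and 8.48 and then 6.55, 6.71 and 7.16, and it fell by 2.0 and 1.84. Its partners Ndc80 and Nuf2 fell by 1.43 and 1.47 in placebo and by 1.53 and 1.36 under anti-miR-182. Cenpf, a protein of the outer kinetochore, fell by 1.65 and 1.78. Cenpa, the histone that marks centromeres, fell least of the 5, by 0.92 and 0.80, and the days were far apart all the same: its placebo arrays read 6.57 to 6.77 and then 5.59 to 5.85.

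Of 13 spindle motors and microtubule proteins, 13 fell in placebo and 12 under anti-miR-182, each with a median of -1.54. Ckap2, a microtubule-stabilizing protein, read 8.44, 8.46 and 8.31 in placebo at day 2 and 6.39, 6.50 and 6.07 at day 7, and fell by 2.09. The treated values were 8.33, 8.40 and 8.22 and then 5.91, 6.90 and 6.53, a fall of 1.87. Hmmr, a spindle assembly protein, fell by 1.85 and 1.68 with a small SE of 0.15. The motors Kif20b, Kif4a, Kif22, Kif18a and Kif2c, which move or depolymerize microtubules, fell by 1.82, 1.70, 1.61, 1.49 and 1.45 in placebo and by 1.76, 1.55, 1.73, 1.18 and 1.45 under anti-miR-182. Nusap1, Tpx2, Spag5 and Dlgap5, which bundle, nucleate or stabilize spindle microtubules, fell by 1.71, 1.54, 1.51 and 1.14 in placebo and by 1.62, 1.53, 1.54 and 0.97 under anti-miR-182. Kif11, the motor that pushes the spindle poles apart, fell by 0.91 and 0.79, and the second of these was lost with quantile normalization or centring. Kif15, a motor that backs up Kif11, read 7.46, 7.32 and 7.61 in placebo and then 6.75, 7.11 and 6.96, a difference of -0.52 that passed (adjusted p 0.0218). Its treated arrays read 7.27, 7.36 and 6.92 and then 6.78, 7.23 and 6.95, so the days overlapped and the difference of -0.20 did not pass (adjusted p 0.341). The placebo call of Kif15 was lost with quantile normalization or centring.

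All 6 cytokinesis genes fell, with medians of -1.56 and -1.43. Kif23, a motor of the central spindle, read 8.74, 8.67 and 8.95 in placebo at day 2 and 6.63, 7.18 and 6.62 at day 7. Treated animals gave 8.50, 8.76 and 8.13 and then 6.35, 6.67 and 6.72, and its falls were 1.97 and 1.88. Racgap1, its partner in the centralspindlin complex, fell by 1.34 and 1.38. Kif20a, a motor that carries the passenger complex to the midzone, fell by 1.72 and 1.49 and Prc1, which cross-links the midzone, by 1.66 and 1.70. Ect2, the exchange factor that activates RhoA at the cleavage furrow, fell by 1.46 and 1.06, and Cep55, of the final abscission, by 1.33 and 1.26.

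Both genes of chromosome structure fell. Mki67, which encodes the proliferation marker Ki-67, read 9.66, 9.54 and 9.83 in placebo at day 2 and 7.70, 8.40 and 7.74 at day 7, a fall of 1.73 ± 0.21 (SE). Under anti-miR-182 it read 9.34, 9.86 and 9.17 and then 7.40, 7.83 and 7.83, a fall of 1.77 ± 0.21. Top2a, the topoisomerase that untangles sister chromatids, read 10.64, 10.62 and 10.80 and then 8.67, 9.18 and 8.81 in placebo, and fell by 1.80. Its fall under anti-miR-182 was 1.69. The highest day 7 array was placebo replicate 2 for both genes.

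The calls of the smaller falls were also lost in some fits with a single array left out, which have fewer arrays in a group. In placebo, Cdc25c, Espl1, Kif15 and Ube2c no longer passed without day 2 replicate 1, without day 2 replicate 3 or without day 7 replicate 1, with differences from -0.58 to -0.51 for Cdc25c, -0.33 to -0.32 for Espl1, -0.52 to -0.43 for Kif15 and -0.56 to -0.50 for Ube2c. Without day 7 replicate 2, Cdc25c (-0.54) and Espl1 (-0.34) were lost, and without day 7 replicate 3 Ube2c (-0.52). Under anti-miR-182, leaving out day 2 replicate 2 lost Aurka (-0.43), Cdc25c (-0.47), Kif11 (-0.66) and Ube2c (-0.50). Leaving out day 7 replicate 1 there lost Aurka (-0.58), Cdc25c (-0.40) and Ube2c (-0.56). Aurka was also lost without day 2 replicate 1 (-0.53) or day 7 replicate 2 (-0.58), and Ube2c without day 7 replicate 3 (-0.55). The other falls kept their call when single arrays were left out.

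**Figure D3:**
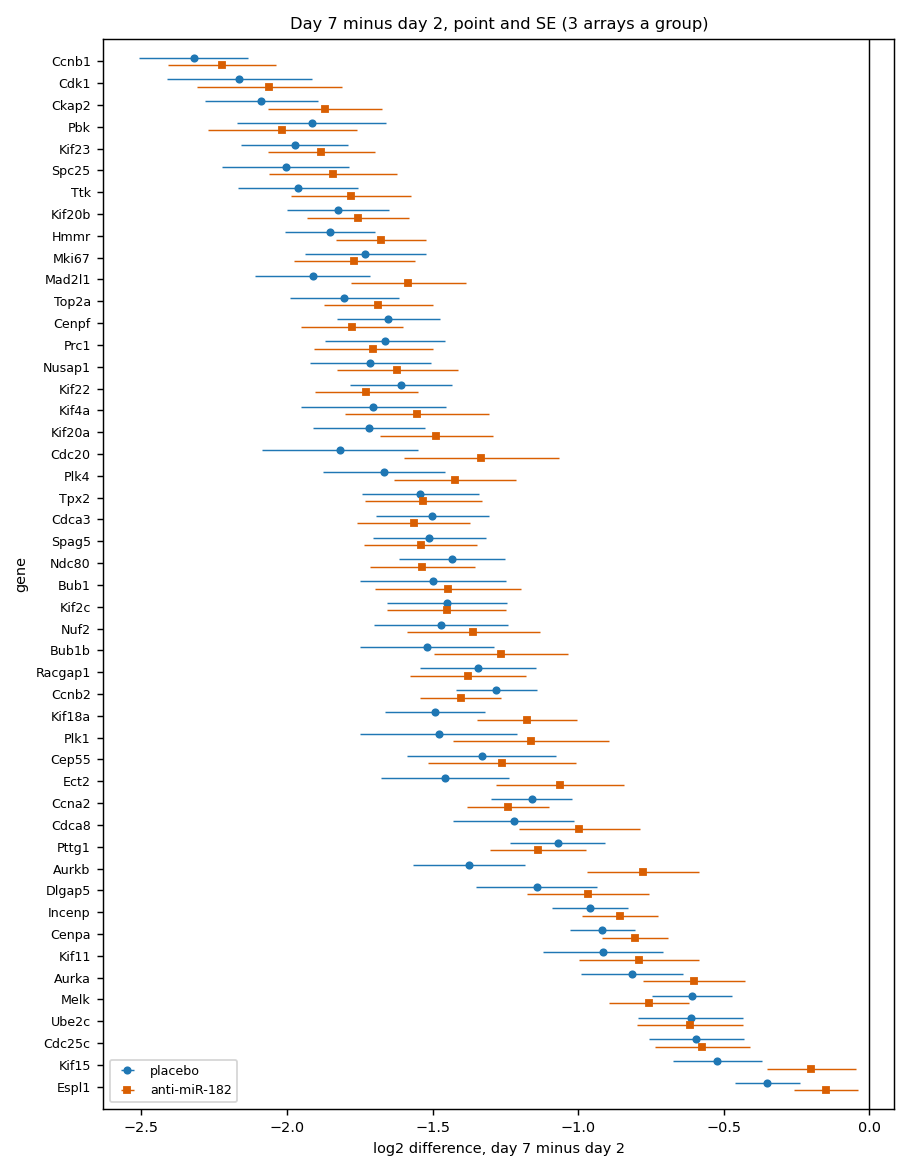
Day 7 minus day 2 for each of the 48 genes (log2, point and SE from limma, 3 arrays a group), in placebo (circles) and under anti-miR-182 (squares). All points lie below 0, from -2.32 for Ccnb1 in placebo to -0.15 for Espl1 under anti-miR-182, and the pairs of points lie close to each other for most genes.

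The placebo and anti-miR-182 differences between days come from separate animals. The point estimate of the fall was larger in placebo for 33 of 48 genes, but the test of the difference between treatments called 0 of 48 (0% of all genes called; limma). The median of that difference was 0.10, beside -0.03 over all genes. At an unadjusted p under 0.05 it held 1 gene, Aurkb, with 0.60 ± 0.27 (SE; unadjusted p 0.0459, adjusted p 0.999). Leaving out anti-miR-182 day 2 replicate 3 moved the median to -0.01, and over all 12 arrays left out in turn it ran from -0.04 (placebo day 7 replicate 1) to 0.27 (placebo day 7 replicate 2). For Espl1 and Kif15, which passed in placebo only, the differences of 0.20 and 0.32 did not pass either (adjusted p 0.999 for both), so their falls were not shown to differ between treatments.

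With and without TTTGAA in the promoter window, the median difference between days was -1.65 (31 genes) and -1.47 (10 genes) in placebo, and -1.54 and -1.31 under anti-miR-182. The ranges overlapped almost wholly, from -2.16 to -0.35 with the match and from -2.32 to -0.61 without it in placebo. Ccnb1, with the largest fall, is among those without it, and Espl1, with the smallest, holds it.

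Other genes of the cell cycle were read for context. Of 57 further mitosis genes that are not in the set, such as condensins and centromere proteins, 48 fell in placebo and 50 under anti-miR-182, with medians of -0.95 and -0.88. Quantile normalization left 42 and 40 of them called. Cenpi, a centromere protein, fell by 2.23 in placebo, and Cdca2, a chromatin regulator of mitotic exit, by 1.97 and 2.02. Of 37 DNA replication genes, 32 and 31 fell, with medians of -0.79 and -0.68, and quantile normalization left 22 and 22, with medians of -0.57 and -0.52. Mcm5 of the replicative helicase fell by 1.14 and 1.08, the sliding clamp gene Pcna by 1.20 and 1.18, and Tyms, which makes thymidylate, by 0.87 and 1.11.

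Genes that act around the mitotic program stood closer to the median gene. Among 20 regulators of cell cycle transcription, 9 and 7 fell, with medians of -0.39 and -0.31, and 5 and 3 did so with quantile normalization. Foxm1 (-0.93 and -0.74) and Mybl2 (-0.80 and -0.62), activators of G2 and M phase genes, and Rbl1 (-0.95 and -1.0), a subunit of DREAM, were among those that fell. The 15 subunits and activators of the anaphase-promoting complex, which also works outside mitosis, had medians of -0.21 and -0.20, near those of all genes. Of these 6 and 5 fell, the activator Fzr1 by 0.58 and 0.57, but with quantile normalization the medians were -0.02 and -0.01 and 1 and 2 fell. Of 11 inhibitors of cyclin-dependent kinases, G1 cyclins and their kinases, 4 fell in each treatment, Cdkn2c, an inhibitor of Cdk4 and Cdk6, by 0.61 and 0.49. Quantile normalization called 0 of the 11 lower and 1 higher in placebo, and 1 lower under anti-miR-182. Array-median centring called 3 lower in placebo and 1 under anti-miR-182.

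Treatment with anti-miR-182 gave lower point estimates than placebo for nearly all mitosis and spindle genes, and none passed. At day 2, 47 of 48 were lower, Melk at 0.02 being the exception, with a median of -0.24 beside 0.03 over all genes, 41.3% of which were lower. At day 7, 42 of 48 were lower, with a median of -0.14 beside 0.00 over all genes, 50.2% of which were lower. The mean of both days was lower for 47 of 48, with a median of -0.21 beside 0.01. Limma called 0 of 48 in each of these comparisons, where it called, in the same order, 0%, 0% and 0.00550% of all genes. It also called 0 of 48 in 24 other settings, of which the fit of each day alone gave no mean over both days. The 95% intervals of the mean over both days reached from -0.79 to 0.32 across the 48 genes.

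**Figure D4:**
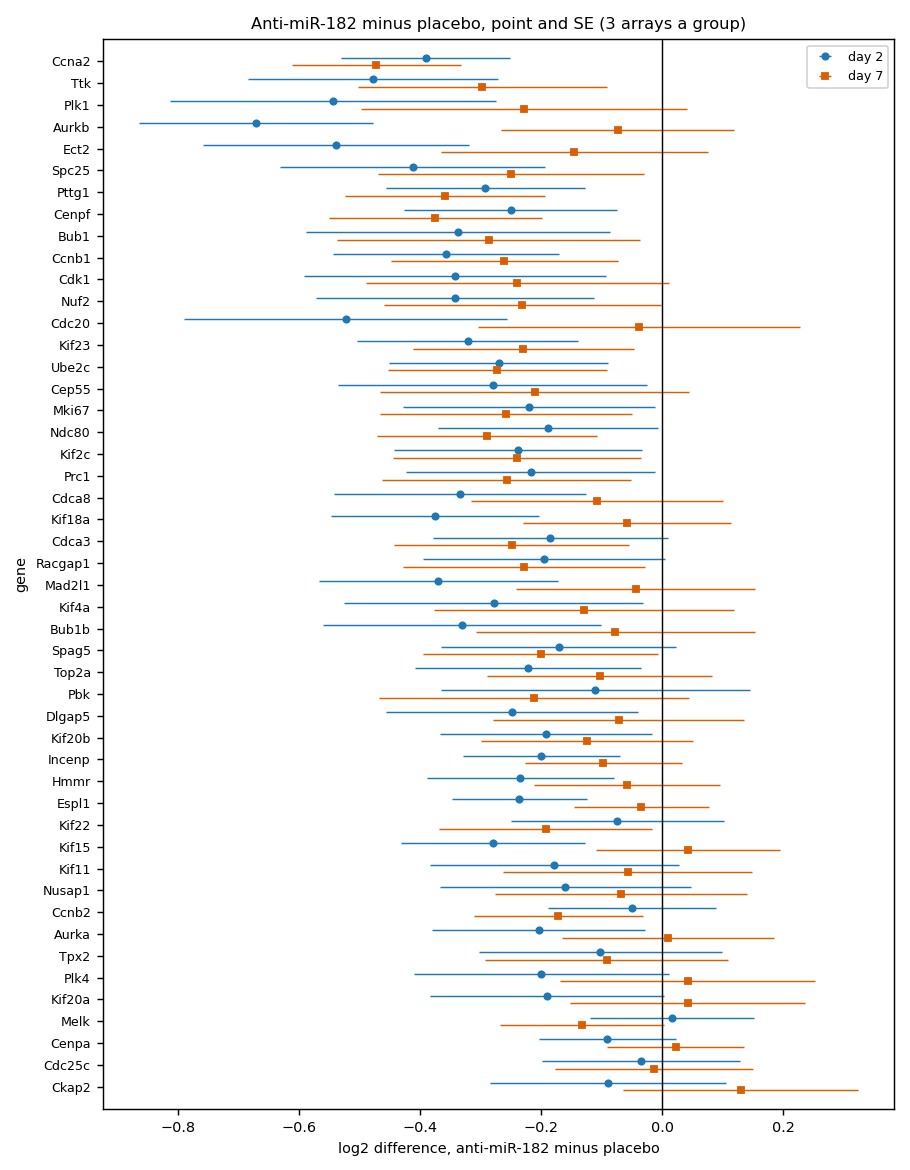
Anti-miR-182 minus placebo for each of the 48 genes (log2, point and SE from limma, 3 arrays a group), at day 2 (circles) and day 7 (squares). Most points lie below 0, with medians of -0.24 at day 2 and -0.14 at day 7, and none passed the adjusted threshold.

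At an unadjusted p under 0.05, 5 of 48 genes were lower at day 2 (10.4%), against 2.41% of all genes. Aurkb differed by -0.67 ± 0.19 (SE; unadjusted p 0.0037, adjusted p 0.645), Ect2 by -0.54, Ttk by -0.48, Ccna2 by -0.39 and Kif18a by -0.38. The anti-miR-182 arrays lay below all placebo arrays for 8 genes at day 2 (16.7%, against 4.24% of all genes): Aurkb, Ccna2, Ccnb1, Espl1, Kif18a, Mad2l1, Pttg1 and Spc25. For the other 40 the groups overlapped. Plk1 shows such an overlap: it read 8.99, 8.93 and 9.13 in placebo and 8.61, 9.03 and 7.76 under anti-miR-182, a difference of -0.54 ± 0.27 with an unadjusted p of 0.0627. By role, the medians at day 2 ran from -0.35 for the checkpoint genes to -0.19 for the spindle motors and microtubule proteins.

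At day 7, 2 of 48 genes were lower at an unadjusted p under 0.05 (4.2%), against 1.66% of all genes. These were Ccna2 with -0.47 ± 0.14 (SE; adjusted p 0.999) and Pttg1 with -0.36 ± 0.16 (adjusted p 0.999). The same 2 were those whose groups lay apart, 4.2% against 3.75% of all genes, so that share was near the background. In order of unadjusted p, Cenpf (-0.37), Ndc80 (-0.29) and Ube2c (-0.27) came next. Of the 6 genes that were higher, Ckap2 had the largest difference, 0.13 ± 0.19.

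Ccna2 and Pttg1 were the mitosis and spindle genes whose treated arrays lay below the placebo arrays on both days, 4.2% of the 48 against 0.160% of all genes, or 29 genes, 27 of them outside the set. Ccna2 read 8.43, 8.48 and 8.59 in placebo and 8.06, 8.33 and 7.93 under anti-miR-182 at day 2. At day 7 it read 7.23, 7.59 and 7.20, and 6.75, 6.80 and 7.06. Its mean difference was -0.43 ± 0.10 (SE; 95% interval -0.64 to -0.22), the largest of the 48, with an unadjusted p of 0.000664 and an adjusted p of 0.741. With both arrays that stood apart left out, described next, it was -0.33. For Pttg1, whose values are given above, the mean difference was -0.33 ± 0.12 (adjusted p 0.888), and -0.16 without those arrays. Over both days 7 of 48 genes were lower at an unadjusted p under 0.05 (14.6%, against 2.03% of all genes), namely Ccna2, Pttg1, Aurkb, Ttk, Cenpf, Ccnb1 and Ect2. The marker Mki67 differed by -0.24 ± 0.15 (95% interval -0.55 to 0.08), and by -0.05 without those arrays.

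The size of the treatment difference rested on single arrays. At day 2, anti-miR-182 replicate 3 was the lowest array of the day for 36 of 48 genes and replicate 1 for the other 12, while replicate 2 of the same group was the highest of the day for 22. Against its groupmates, replicate 2 was above both in 46 of 48 genes, with a median of 0.52. At day 7, placebo replicate 2 was the highest array for 41 of 48 genes and lay above both groupmates in 45, by a median of 0.51. Anti-miR-182 day 7 replicate 1 was the lowest for 32 and lay below both groupmates in 42, by a median of -0.33. The median SD of the 48 genes was 0.34 for anti-miR-182 and 0.11 for placebo at day 2, and 0.21 and 0.32 at day 7. Over all genes it was 0.18, 0.11, 0.14 and 0.15 in the same order.

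Without anti-miR-182 replicate 3, the median treatment difference at day 2 was -0.12, with 40 of 48 lower, and without replicate 2 it was -0.41. At day 7, without placebo replicate 2, the median was 0.02 and 23 of 48 were lower. It was -0.06 without anti-miR-182 replicate 1 (30 lower) and -0.27 without placebo replicate 1 (44 lower). With anti-miR-182 day 2 replicate 3 and placebo day 7 replicate 2 both left out, an alternative added after the values were seen, the median of the mean over both days was -0.05, with 35 of 48 lower.

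Marker lists of other cells moved with some of these arrays and not with others. In anti-miR-182 day 2 replicate 2, 8 of 22 macrophage, 2 of 13 fibroblast and 5 of 18 lymphocyte markers lay above both groupmates. There 10 of 15 injured tubule genes and 41.1% of all genes did so. In replicate 1 of that group, 12 of 22 macrophage and 9 of 13 fibroblast markers lay above both groupmates, with 1 of the 48 mitosis and spindle genes. In placebo day 7 replicate 2, 20 of 22 macrophage markers, 13 of 13 fibroblast markers and 12 of 18 lymphocyte markers lay above both groupmates, as did 33.9% of all genes. The injured tubule genes did not single out this array, with 7 of 15 above both groupmates there and 7 of 15 in replicate 3. The macrophage list averaged 2.19 log2 above the mean of all genes there, against 1.13 and 1.48 in the other placebo arrays of day 7 and 1.24 to 1.40 under anti-miR-182. Its summed log2 signal ran from 166.0 to 190.3 in placebo and from 169.9 to 172.1 under anti-miR-182. In anti-miR-182 day 2 replicate 3, 13 of 15 injured tubule genes, 15 of 22 macrophage markers and 10 of 13 fibroblast markers lay below both groupmates, as did 46.0% of all genes. The injured tubule list averaged 1.61 there, against 2.31 and 2.39 in its group and 2.53 to 2.77 in placebo. Its summed log2 signal ran from 123.4 to 136.4 under anti-miR-182 and from 137.3 to 140.7 in placebo. Of 22 macrophage markers 1, Cd163, had a mean in the lowest quartile of genes, as did 4 of 18 lymphocyte markers, Cd2, Gzmb, Ms4a1 and Zap70. In anti-miR-182 day 7 replicate 1, 9 of 15 injured tubule genes and 11 of 22 macrophage markers lay below both groupmates. There 5 of 13 fibroblast markers and 35.1% of all genes did so. Of 15 proximal tubule genes, 10 lay above both groupmates in that array, as did 24.7% of all genes. In anti-miR-182 day 2 replicate 1, 14 of 15 proximal tubule genes lay below both groupmates, as did 35.3% of all genes. The part of these lists in the treatment difference of the mitosis and spindle genes was not tested.

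**Figure D5:**
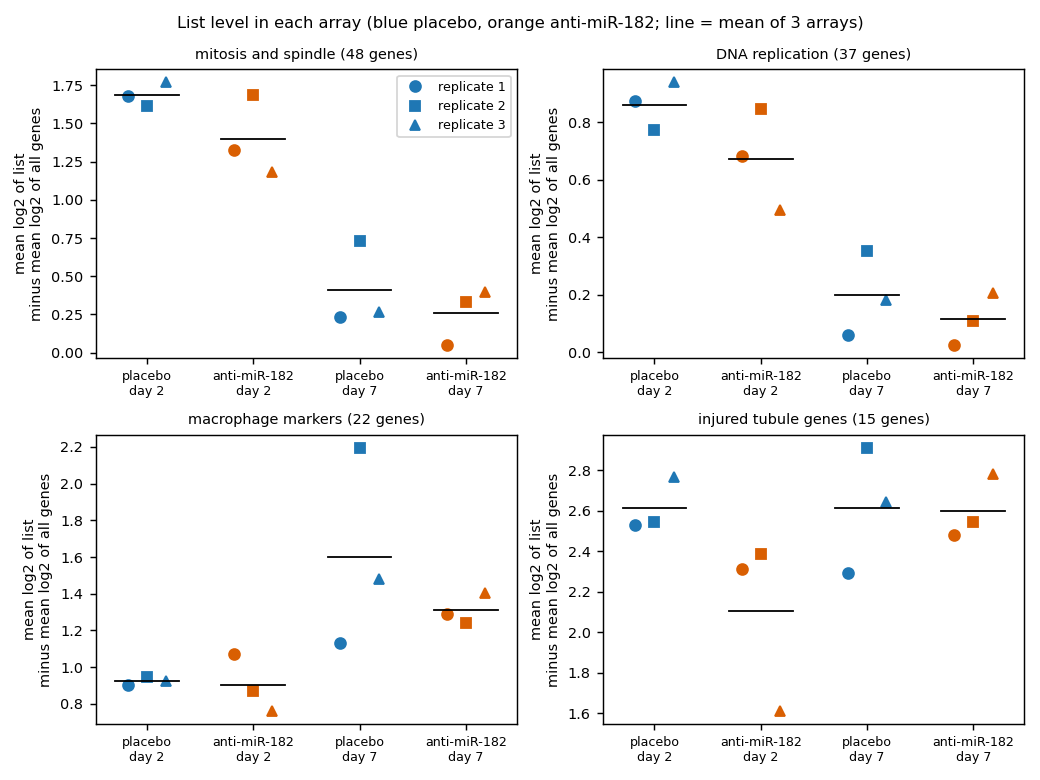
Level of 4 gene lists in each array, as the mean log2 signal of the list minus that of all genes, by treatment and day; symbols mark replicates, blue is placebo, orange is anti-miR-182 and the line is the mean of 3 arrays. The mitosis and spindle list lay between 1.18 and 1.77 at day 2 and between 0.05 and 0.73 at day 7, and placebo day 7 replicate 2 was the highest of its day there and in the macrophage list.

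The mitosis and spindle list had no overlap between days in this measure. At day 2 it stood at 1.68, 1.62 and 1.77 in placebo and 1.33, 1.68 and 1.18 under anti-miR-182. At day 7 it stood at 0.24, 0.73 and 0.27, and 0.05, 0.33 and 0.40. The treatments overlapped on both days. Between the days the macrophage and fibroblast lists had median differences of 0.46 and 0.57 in placebo. There 7 of 22 and 6 of 13 of their genes rose and 2 and 0 fell, where 4.22% of all genes rose, and with quantile normalization 13 and 9 rose. Under anti-miR-182 the medians were 0.24 and 0.25, with 3 and 2 genes that rose and 2 and 1 that fell, where 2.68% of all genes rose, and with quantile normalization 7 and 5 rose. In limma's test of the difference between these 2 day changes, 0 genes of either list passed, and 2 of 22 and 4 of 13 had an unadjusted p under 0.05. The proximal tubule list was lower at day 7 in placebo, at 2.92 to 3.09 against 3.75 to 3.88 at day 2. Under anti-miR-182 it stood at 2.67 to 3.69 at day 7 and 3.44 to 3.99 at day 2. On the deposited values Aqp1, Fbp1, Lrp2, Pck1, Slc13a3, Slc22a6, Slc22a8, Slc34a1 and Slc4a4 of this list were called lower in placebo. Fbp1, Lrp2, Pck1, Slc13a3, Slc22a6 and Slc4a4 were also called lower under anti-miR-182. In these comparisons 23.7% and 24.9% of all genes were called lower. With quantile normalization the median differences of the list were -0.4 in placebo and -0.235 under anti-miR-182. There 4 and 1 of its 15 genes fell. The median of the injured tubule list was -0.01 in placebo and 0.21 under anti-miR-182. On the deposited values the genes of this list called in placebo were Anxa2 (-0.54), Fgb (-0.97) and Krt8 (-0.55), all lower. Under anti-miR-182, Cd44 (0.86) and Lcn2 (2.0) were called higher and Krt8 (-0.82) lower. With quantile normalization the median of the injured tubule list was 0.21 and 0.46. There 1 and 5 of its 15 genes rose, with 0 and 1 that fell. The other mitosis genes and the replication genes had median treatment differences of -0.11 and -0.13 over both days, and 0 of 57 and 0 of 37 passed, where 5 and 4 were lower at an unadjusted p under 0.05.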

How the data were processed

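Total RNA of 12 rat kidneys, 200 ng per array, was extracted with Trizol and labelled with biotin, per the labels. The deposited table holds log2 signals of 36685 rows from 1.48 to 13.4, and the submitters' processing notes name RMA, which corrects background, normalizes and summarizes probes. Its version and a genome build were not found in those notes. Groups come from the sample titles, although another label speaks of a zero-hour biopsy. The annotation gave 18511 rows with 1 symbol (18394 matched to RefSeq by ID) and 575 with several, and 17599 rows were not listed. The brightest row with values on every array stood for each of 18166 genes.

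Limma 3.58.1 (R 4.3.3) fitted 4 group means and 6 comparisons with eBayes, with Benjamini-Hochberg adjustment over all genes and a threshold of 0.05. Steps were tested on simulated data. The number of arrays limits the precision, and p-values measure the spread between these animals. The gene set, its roles, the context and marker lists and the motifs were chosen with earlier results of these data known. Named genes were Ccnb1, Mki67, Aurkb, the 5 largest changes or smallest p values in each comparison, genes apart on both days and genes that missed between days, and other members were named to account for all. The alternatives were each day alone, trend, robust and weighted fits, dim genes left out, quantile normalization, centring, other row rules, another threshold and each array left out.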

Additional observations from a re-analysis of the deposited data

How the results depend on the processing

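In 24 settings beside the main one, 0 of 48 genes passed in any treatment comparison and the falls between days kept their direction, except Espl1 under anti-miR-182, which turned to 0.03 with quantile normalization and 0.04 with centring. Among these settings, the fit of each day alone gave only the treatment differences at day 2 and at day 7. The median fall in placebo was -1.27 with quantile normalization, and -1.73 without both anti-miR-182 day 2 replicate 3 and placebo day 7 replicate 2, an alternative added after the values were seen. With single arrays left out it ran from -1.73 (placebo day 7 replicate 2) to -1.36. Under anti-miR-182 it was -1.69 with array weights. The causes were not tested. Calls between days were lost in some setting for Cdc25c, Espl1, Kif15, Melk and Ube2c in placebo and for Aurka, Cdc25c, Kif11 and Ube2c under anti-miR-182. The sign of the treatment difference changed in some setting for 12 of 48 genes on day 2, for 28 on day 7 and for 15 in the mean over both. No paired analysis was possible because the labels give animal codes and no shared replicate numbers. With 3 arrays a group, single arrays carry much of the spread.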
